A study of Mus musculus with 11 samples.

Results

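ESCRT-I is the endosomal sorting complex built from Tsg101, Vps28, a Vps37 subunit and an Mvb12 or Ubap1 subunit. The genes described here are 8 of its subunits in the mouse: Vps37a, Vps37b, Vps37c, Tsg101, Vps28, Mvb12a, Mvb12b and Ubap1. All 8 were found by symbol among the 21957 genes counted. The group was chosen by the footprint counts of Vps37b, which fall after stimulation, so the footprint values of Vps37b are given as a description with no test. The other 7 genes were taken as partners of Vps37b in the complex, and the mRNA libraries are separate from the footprint libraries that led to the choice.

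The cells were primed OT1 cells, mouse CD8 T cells whose transgenic receptor recognises an ovalbumin peptide. Stimulated cells (2 h) were given beads carrying antibodies to CD3 and CD28, and unstimulated cells (T0) were left at rest, and both received cycloheximide, which halts elongating ribosomes, for 10 min. The 2 h state had 3 RNA and 2 footprint libraries, and T0 had 3 RNA and 3 footprint libraries. A footprint is the piece of mRNA that a translating ribosome protects. Whether replicates came from separate animals or cultures is not stated, so each p-value measures the spread between these samples, which may be technical.

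ESCRT-I binds ubiquitin-tagged membrane proteins on endosomes and passes them toward ESCRT-II and ESCRT-III, which bud them into multivesicular bodies for breakdown in lysosomes. Tsg101 carries the ubiquitin-binding domain, Vps28 contacts ESCRT-II, and the Vps37 and Mvb12 or Ubap1 subunits complete the stalk of the complex and exist as alternative paralogues. In human cells, VPS37A and UBAP1 occur together in a form of ESCRT-I that acts in receptor sorting. In T cells, engaged antigen receptors are among the cargoes of this route, and TSG101 sorts receptors into vesicles released at the immune synapse.

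RNA libraries held 21658263 to 39346699 counts over coding sequences, and footprint libraries held 11136 to 23641. Stimulated replicates 1 and 2 and unstimulated replicate 2 stood apart in RNA, with 19.3, 16.0 and 13.4% of their counts on the predicted genes Gm10800 and Gm10801, against 2.27 to 6.60% in the other RNA libraries. The stimulation gene Ifng, which encodes interferon gamma, averaged 1680.2 ± 267 CPM in 2 h cells and 44.0 ± 4.11 CPM in T0 cells, and the activation marker Cd69 averaged 1991 ± 432 and 1005 ± 61.8 CPM (CPM, library-size-scaled counts after TMM, a scaling that evens out library composition; mean ± SD, n = 3 per group). Cd8a, a chain of the CD8 coreceptor, was at 624 ± 163 CPM in 2 h cells and 629 ± 58.4 CPM in T0 cells, and Actb, which encodes beta actin, at 6200.2 ± 1514 and 7439 ± 337 CPM. All 8 CD8 T cell markers had RNA and footprint counts. The 6 B cell and 4 NK cell markers had 0 footprints in all 5 footprint libraries, and their summed RNA was 7.28 to 12.3 and 1.97 to 3.40 CPM in 2 h libraries and 4.82 to 11.1 and 0.804 to 1.92 CPM in T0 libraries. The 9 myeloid markers summed to 15.4 to 19.6 CPM in 2 h and 9.48 to 15.7 CPM in T0 RNA libraries. The 5 dendritic cell markers summed to 34.5 to 38.1 CPM in 2 h and 18.7 to 27.0 CPM in T0, the 3 CD4 T cell markers to 18.9 to 24.8 and 11.8 to 12.2 CPM, and the 5 erythroid and platelet markers to 5.20 to 7.85 and 3.10 to 5.49 CPM. By edgeR 1 CD4 T cell and 1 dendritic cell marker were called higher, as were 677 of all 18886 genes tested. Of these lists, 4 of 5 dendritic, 2 of 3 CD4, 6 of 9 myeloid and 4 of 5 erythroid and platelet markers had 0 footprints. With 85433 footprints in all 5 libraries, RNA as low as that of the B cell and NK cell markers gives few or no footprints. Their 0 counts therefore do not show that such cells were absent. The part of other cells in the results was not tested. In bulk libraries, fewer cells of a type and less RNA per cell cannot be told apart.

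Vps37b mRNA fell 2.56-fold within 2 h of stimulation. Vps37b (ENSMUSG00000066278, chromosome 5, 124004641 to 124032260 on GRCm38) encodes one of the alternative Vps37 subunits. It stood at 96.5, 99.6 and 133 CPM in the 2 h libraries and at 285, 263 and 294 CPM in the T0 libraries. Every 2 h library was below every T0 library. The means were 110 ± 20.3 CPM in 2 h cells and 281 ± 16.3 CPM in T0 cells (SD, n = 3 each), a log2 change of -1.35 ± 0.20 (standard error) with an adjusted p of 0.00197 in edgeR's quasi-likelihood test, Benjamini-Hochberg adjusted over 18886 genes. The fall was seen in 3 of 3 stimulated libraries and passed in all 15 alternative fits, with adjusted p between 3.6e-09 and 0.00681. In this test 4.68% of all genes were called lower and 8.26% were called in either direction, and Vps37b was 1 of 8 ESCRT-I genes called, as lower. Among the 8494 genes of at least 10 CPM, 831 were called lower. By log2 change Vps37b was the 38th lowest of these 8494. The lncRNA gene Gm34086 (124027545 to 124048786) overlaps Vps37b and has no row in the counts, and reads of the overlap cannot be told apart without the strand setting.

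The other Vps37 paralogues did not pass the test. Vps37a (chromosome 8, 40511742 to 40551134) was at 72.0, 75.7 and 93.0 CPM in 2 h libraries and at 63.8, 57.9 and 61.3 CPM in T0 libraries. Every 2 h value was above every T0 value, with a log2 change of 0.40 ± 0.17 that did not pass (adjusted p = 0.202 in edgeR). Vps37c (chromosome 19, 10688735 to 10714628) had 11.1, 15.5 and 19.9 CPM in 2 h libraries and 16.5, 16.3 and 17.4 CPM in T0 libraries. The 2 h libraries of Vps37c lay on both sides of the T0 libraries, and the log2 change was -0.11 ± 0.19 (adjusted p = 0.668 in edgeR). Vps37d, a further paralogue outside the chosen genes, averaged 0.205 CPM in 2 h cells and 0.113 CPM in T0 cells and did not pass the filter on low counts.

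**Figure D1:**
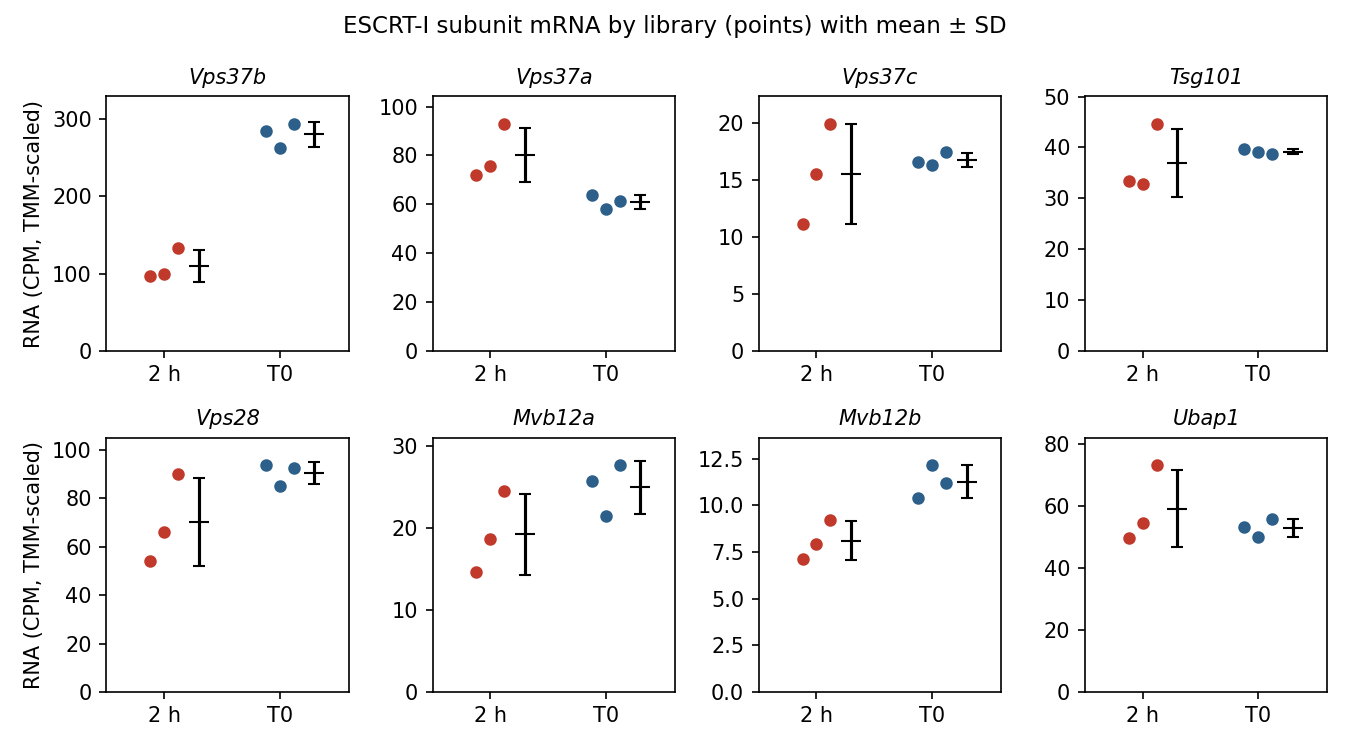
RNA level of the 8 ESCRT-I genes in each library, in TMM-scaled CPM (vertical axes start at 0), with 2 h stimulated libraries left (red) and unstimulated T0 libraries right (blue); points are libraries and black bars mean ± SD (n = 3). Vps37b lies between 96.5 and 133 CPM in 2 h cells and between 263 and 294 CPM in T0 cells, and stimulated replicate 3 is the highest 2 h library for each gene.

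Because a ratio of genes within a library needs no scaling, the Vps37 paralogues were also compared as shares of their summed counts. Vps37b made up 53.7, 52.2 and 54.1% of Vps37a, Vps37b and Vps37c RNA counts in the 2 h libraries and 78.0, 78.0 and 78.9% in the T0 libraries. The replicates of each state lay within 2 percentage points of each other, and the states were 24.9 points apart. Vps37a took 40.1, 39.7 and 37.8% in 2 h libraries and 17.5, 17.2 and 16.4% in T0 libraries, and Vps37c took 7.47 ± 1.11% and 4.68 ± 0.156% (mean ± SD, n = 3 each). An exact permutation test over samples (two-sided) gave p = 0.1 for the Vps37b share, the smallest that 3 against 3 libraries allow. These are shares of counts and not of molecules, since a longer coding sequence collects more counts and coding lengths were not used here.

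**Figure D2:**
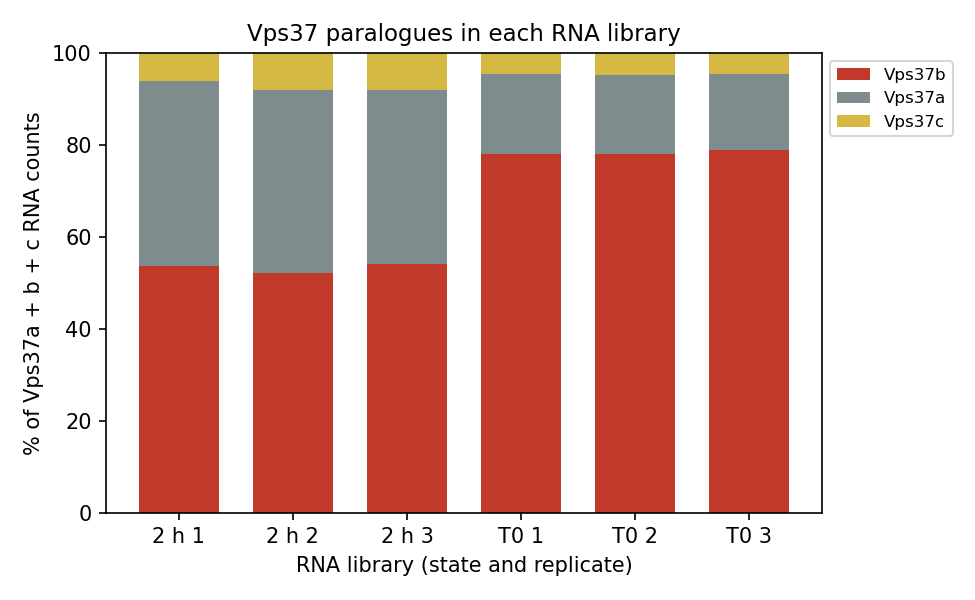
Share of Vps37b, Vps37a and Vps37c in their summed RNA counts, in percent, in each of the 3 stimulated libraries (left) and the 3 unstimulated libraries (right). Vps37b holds 52.2 to 54.1% in 2 h libraries and 78.0 to 78.9% in T0 libraries.

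The core subunits were also measured. Tsg101 (chromosome 7, 46888949 to 46926320) was at 33.4, 32.8 and 44.6 CPM in 2 h libraries and at 39.6, 39.1 and 38.7 CPM in T0 libraries. The groups overlapped, and the log2 change of -0.08 ± 0.16 (adjusted p = 0.710 in edgeR) turned to 0.01 among genes of at least 10 CPM. A pseudogene copy, Tsg101-ps on chromosome 15, is annotated outside the count table, so its counts are uncertain where reads are shared. Vps28 (chromosome 15, 76622086 to 76626084) was at 54.2, 66.1 and 90.0 CPM in 2 h libraries and at 93.8, 85.1 and 92.7 CPM in T0 libraries. Stimulated replicate 3 alone reached the T0 range, and the log2 change was -0.37 ± 0.20 (adjusted p = 0.306 in edgeR).

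Among the interchangeable Mvb12 and Ubap1 subunits, Mvb12a (chromosome 8, 71542907 to 71548026) had 14.6, 18.7 and 24.5 CPM in 2 h libraries and 25.8, 21.5 and 27.7 CPM in T0 libraries. Its groups overlapped, with a log2 change of -0.37 ± 0.19 (adjusted p = 0.281 in edgeR). Mvb12b (chromosome 2, 33729953 to 33887946) had 7.15, 7.94 and 9.21 CPM in 2 h libraries and 10.4, 12.2 and 11.2 CPM in T0 libraries. Every 2 h library of Mvb12b was below every T0 library, and the log2 change was -0.47 ± 0.19 (adjusted p = 0.171 in edgeR). Ubap1 (chromosome 4, 41348996 to 41389766) had 49.7, 54.6 and 73.3 CPM in 2 h libraries and 53.3, 50.0 and 55.9 CPM in T0 libraries. The Ubap1 groups overlapped, and its log2 change of 0.16 ± 0.18 (adjusted p = 0.526 in edgeR) was below 0 by DESeq2 (-0.16), by RLE scaling (-0.07) and by library totals without TMM (-0.03).

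Libraries did not overlap for 2 of the 8 genes as lower in 2 h cells (Vps37b and Mvb12b), against 13.6% of all genes tested. For 1 gene (Vps37a) they did not overlap as higher, against 15.4%. Among the 8494 genes of at least 10 CPM, which include all 8 but Mvb12b, 2073 did not overlap as lower and 1374 as higher. The median log2 change of the 8 genes was -0.24, against 0.39 over all genes tested and -0.09 over the 8494 genes of at least 10 CPM. No ESCRT-I gene was called higher by edgeR, DESeq2 or limma voom. In edgeR 1 higher and 2 lower genes had an unadjusted p under 0.05, as did 9.08% (higher) and 11.5% (lower) of all genes tested. Of the 8494 genes of at least 10 CPM, 1136 (higher) and 1978 (lower) did so. The count of called genes depended on single libraries and on the filter. Without unstimulated replicate 2, 6 genes were called, all lower (all but Vps37a and Ubap1), in a fit that called 67.8% of all genes, 32.1% as lower, and in which the median change of genes of at least 10 CPM was -0.39. Without stimulated replicate 3, the 6 called genes were the lower Vps37b, Tsg101, Vps28, Mvb12a and Mvb12b and the higher Vps37a, where 27.0% of all genes were called, 21.9% as lower, and that median was -0.28.

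Vps37b also changed relative to its partners. The log2 ratio of Vps37b counts to the summed counts of the other 7 genes was -1.33, -1.45 and -1.41 in the 2 h libraries and -0.09, -0.10 and -0.05 in the T0 libraries. The states differed by -1.31, with SDs of 0.06 in 2 h and 0.03 in T0 libraries. Against Tsg101 alone the log2 ratio averaged 1.57 ± 0.04 in 2 h cells and 2.84 ± 0.09 in T0 cells. Against Vps37a it averaged 0.45 ± 0.06 in 2 h cells and 2.20 ± 0.05 in T0 cells, a difference of -1.76, and against Vps37c 2.85 ± 0.24 and 4.07 ± 0.05 (SD, n = 3 each). The exact permutation p was 0.1 for each of the 7 ratios and shares compared, and 0.1 after Benjamini-Hochberg adjustment over them, which is the smallest value possible here.

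Restricting the fit to genes of at least 10 CPM, with TMM factors from those genes, narrowed the errors. There Vps37b was at -1.26 ± 0.04, and 36.4% of genes were called lower and 36.9% higher. Of the 7 ESCRT-I genes in that fit, 3 were called lower (Vps37b, Vps28 at -0.28 ± 0.05 and Mvb12a at -0.28 ± 0.08, edgeR adjusted p = 9.8e-09, 0.000397 and 0.0105) and 2 higher (Vps37a at 0.50 ± 0.05 and Ubap1 at 0.25 ± 0.04, edgeR adjusted p = 1.2e-05 and 0.000271). Mvb12b, at 9.76 CPM before TMM scaling, was outside this fit. Other scalings shifted the median of all genes, which was 0.39 by TMM and 0.19 by RLE, with 677 higher and 883 lower calls by TMM and 334 higher and 1364 lower by RLE. Changes were also set against the median of genes of at least 10 CPM in the same fit, which cancels by construction a scaling that moves all genes alike, so the spread of these values comes from the 7 fits that leave out libraries. Over those, Vps37b lay at -1.29 to -1.24, Vps37a at 0.40 to 0.54 and Ubap1 at 0.22 to 0.27. Vps28 lay at -0.32 to -0.22, Mvb12a at -0.35 to -0.24 and Mvb12b at -0.43 to -0.28. Tsg101 (-0.03 to 0.05) and Vps37c (-0.09 to 0.07) lay on both sides of that median.

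**Figure D3:**
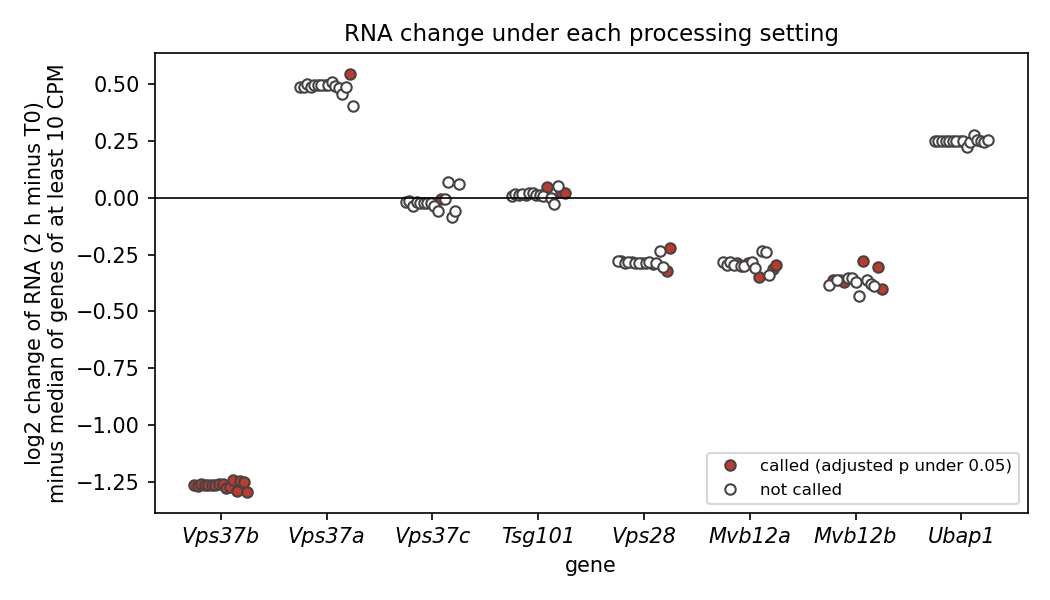
Log2 change of RNA (2 h minus T0) minus the median change of genes of at least 10 CPM in the same fit, for each ESCRT-I gene under 16 processing settings (15 for Mvb12b), each point a setting, red where the gene was called at an adjusted p under 0.05. Vps37b lies between -1.29 and -1.24 and is called in all 16, and Vps37a lies between 0.40 and 0.54.

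Footprints on ESCRT-I mRNAs were few, and in T0 cells most lay on Vps37b. Vps37b had 3 and 7 footprints in the 2 h libraries and 12, 23 and 16 in the T0 libraries, which is 139 and 291 CPM and 1248, 1519 and 993 CPM. Each 2 h library was below each T0 library, which is the difference by which the gene was chosen. The means were 215 ± 108 CPM in 2 h cells (SD, n = 2) and 1253 ± 263 CPM in T0 cells (SD, n = 3), a log2 change of -2.48 ± 0.62 (5.59-fold lower), given with no test. It was -2.01 without stimulated footprint replicate 2 and -3.09 without stimulated footprint replicate 3. Before TMM scaling, the count of 3 in a library corresponds to 127 to 144 CPM in 2 h and 197 to 269 CPM in T0 libraries. The CPM of Vps37b above are TMM-scaled and so on another scale. By its count of 3, 1 of the 2 h libraries was at that limit. All intervals and limits here cover counting error only.

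Vps37b was the sole ESCRT-I gene among the 256 that passed the filter in footprints. Of the other subunits, Vps28 had 3 and 5 footprints in 2 h libraries and 2, 1 and 0 in T0 libraries. Tsg101 had 3 and 2 in 2 h libraries and 0 in each T0 library, and Vps37c had 3 and 1 in 2 h libraries and 1, 0 and 0 in T0 libraries. Mvb12a had 1 footprint, in unstimulated replicate 1. Vps37a, Mvb12b and Ubap1 had 0 footprints in all 5 libraries. None of these 7 genes was tested in footprints. Vps37b held 10 of 27 ESCRT-I footprints in 2 h cells (37.04%, 95% exact Clopper-Pearson interval 19.4 to 57.6%) and 51 of 56 in T0 cells (91.1%, 80.4 to 97.0%). These shares use the counts by which Vps37b was chosen. Their intervals pool libraries and leave out the spread between them, so they are no test of a difference between states. The other 7 genes held 17 of 44489 footprints in 2 h libraries and 5 of 40944 in T0 libraries.

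Footprints were then set against mRNA. The number at the RNA share is the count a gene would have if its footprint CPM equalled its mean RNA CPM. Both are TMM-scaled within their own assay, so this is not a share of raw counts. The RNA mean covers 3 libraries in each state, though 2 h cells had only 2 footprint libraries. For Vps37b this number was 5.01 footprints in 2 h cells and 11.5 in T0 cells. The 10 counted in 2 h cells were 2.00 times that number (95% Poisson interval 0.957 to 3.67) and the 51 in T0 cells 4.45 times (3.31 to 5.85). Among 255 genes that passed the filter in both assays, where the median was 1.98 in 2 h and 1.89 in T0 cells, Vps37b ranked 126 by this ratio in 2 h cells and 26 in T0 cells. The filter on footprint counts keeps genes with many footprints, and Vps37b passed it through its T0 counts alone. The medians and ranks therefore hold among such genes only. The ratios, intervals and ranks of Vps37b use the footprint counts by which it was chosen. They are a description, and their difference between states was not tested. For Vps37a, whose 0 footprints allow up to 3.69 at the 95% Poisson limit, the RNA share gives 3.66 in 2 h and 2.49 in T0 cells, and for Ubap1 2.70 and 2.17. In each state alone these 0 counts lay within counting error of the RNA share. Over all 5 libraries the RNA share gives 6.16 footprints for Vps37a and 4.87 for Ubap1, both above the limit of 3.69. This describes genes with 0 counts and was not tested, and how often genes of such RNA levels had 0 footprints is not given here. Vps28 had 8 footprints against 3.20 in 2 h cells and 3 against 3.70 in T0 cells, and Tsg101 had 5 against 1.69 in 2 h cells and 0 against 1.5996 in T0 cells.

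**Figure D4:**
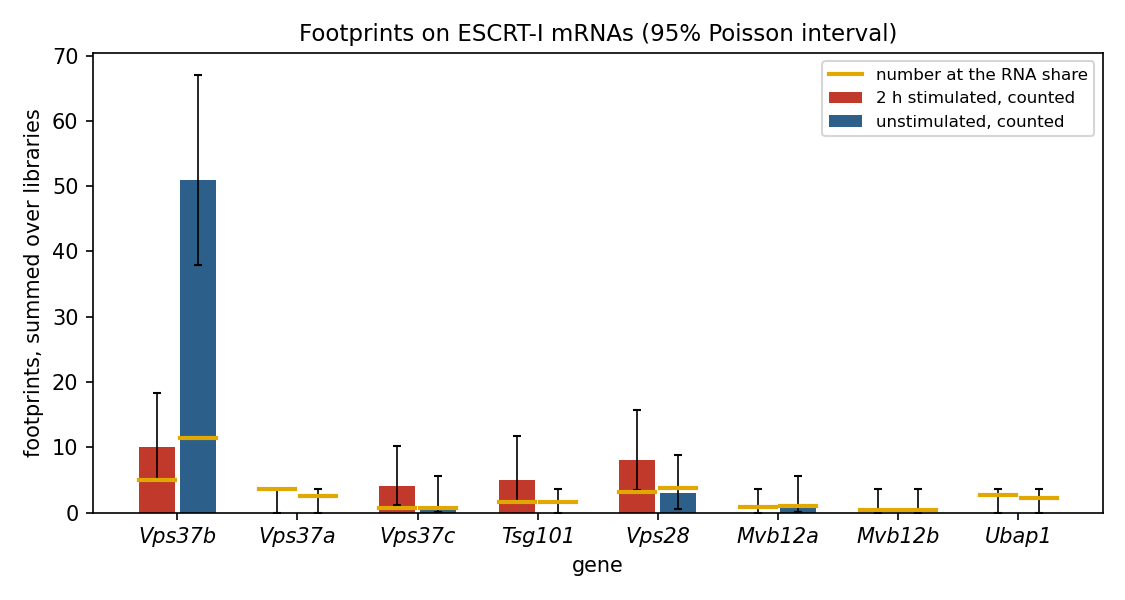
Footprints on each ESCRT-I gene summed over the 2 stimulated libraries (red, left bar) and the 3 unstimulated libraries (blue, right bar), with 95% Poisson intervals for counting error. Yellow lines mark the number each gene would have if its footprint CPM equalled its mean RNA CPM, both TMM-scaled within their assay. Vps37b has 10 footprints in 2 h and 51 in T0 cells, against lines at 5.01 and 11.5.

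The change of Vps37b footprints over and above its mRNA, the interaction of assay and stimulation over all 11 libraries, was a log2 difference of -1.16 ± 0.65. It shares the footprint contrast by which the gene was chosen and is given with no test. Without stimulated footprint replicate 2 it was -0.69, and without stimulated footprint replicate 3 it was -1.81. With no filter on low counts it was -0.74.

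The remaining ESCRT machinery was compared in RNA from lists of 29 genes. By edgeR none of the 29 was called and 1 had an unadjusted p under 0.05, as lower. DESeq2 called 2 and limma voom 1 of them, all lower, and as lower they called 23.2% and 8.05% of all genes with an adjusted p. Their median log2 change was -0.05 and their range -0.63 to 0.27, and none lay as low as Vps37b. In ESCRT-0, which gathers ubiquitinated cargo ahead of ESCRT-I, 0 of 3 passed. Stam2 averaged 56.9 ± 12.2 CPM in 2 h and 51.1 ± 1.90 CPM in T0 cells and Stam 38.9 ± 4.96 and 39.1 ± 1.10 CPM. In ESCRT-II, which receives cargo from Vps28, 0 of 3 passed. Vps36 averaged 56.8 ± 14.3 CPM in 2 h and 57.7 ± 1.59 CPM in T0 cells and Snf8 34.8 ± 8.16 and 36.1 ± 0.752 CPM.

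In ESCRT-III, whose polymers sever the neck of the budding vesicle, 0 of 11 passed, with Ist1 at 131 ± 33.9 CPM in 2 h and 137 ± 10.1 CPM in T0 cells and Chmp4b at 124 ± 27.8 and 113 ± 5.86 CPM. For the VPS4 ATPase, which takes ESCRT-III apart, 0 of 3 passed, with Vps4b at 148 ± 32.5 CPM in 2 h and 144 ± 6.12 CPM in T0 cells and its cofactor gene Vta1 at 53.6 ± 10.96 and 46.7 ± 2.23 CPM. Neither Bro1 protein gene passed: Pdcd6ip, which encodes ALIX, a partner of Tsg101, averaged 162 ± 30.3 CPM in 2 h and 195 ± 10.7 CPM in T0 cells, and Ptpn23 27.8 ± 4.87 and 29.8 ± 2.10 CPM. Of 7 ubiquitin enzymes that act on endosomal cargo, 0 passed. The ubiquitin ligase gene Cblb averaged 285 ± 56.2 CPM in 2 h and 380.0 ± 30.4 CPM in T0 cells (-0.41 ± 0.20), and Itch 129 ± 26.2 and 124 ± 8.48 CPM. The lowest of the 29 was the ligase gene Cbl, singled out after its values were seen, at 96.3 ± 18.6 CPM in 2 h and 149 ± 6.97 CPM in T0 cells (-0.63 ± 0.19, edgeR adjusted p = 0.0652, between 4.2e-07 and 0.321 over the alternatives). Single libraries decided the count here too, since 20 of the 29 were called without unstimulated replicate 2 and 9 without stimulated replicate 3, all lower. Those are the fits above that called 32.1% and 21.9% of all genes as lower.

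**Figure D5:**
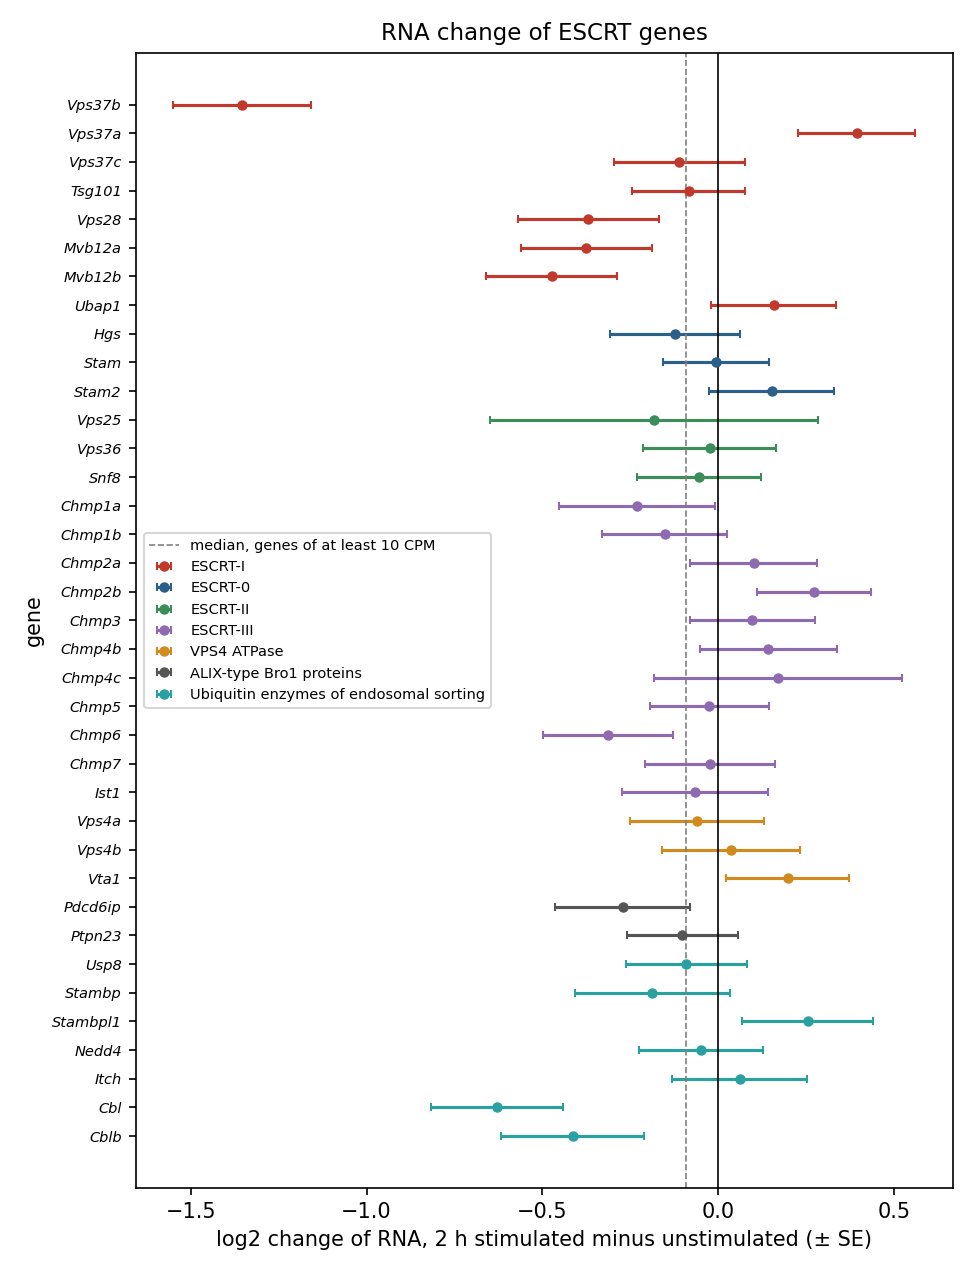
Log2 change of RNA (2 h minus T0, points) with standard error for the 8 ESCRT-I genes and 29 other genes of the ESCRT route, with a line at 0 and a dashed line at the median of genes of at least 10 CPM (-0.09). Vps37b at -1.35 is the lowest of the 37 genes shown, and the others lie between -0.63 and 0.40.

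The 29 genes together had 122 footprints in 2 h cells, against 91.8 at their RNA share, and 96 in T0 cells, against 89.2. Pdcd6ip and Ptpn23 had 26 in 2 h cells, against 8.66 at their RNA share, and 10 in T0 cells, against 9.21. ESCRT-III had 32 in 2 h cells and 31 in T0 cells. These values are a description, since they come from the contrast that led to Vps37b.

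The 5 genes whose pattern was most like that of Vps37b were Hist1h1d, Hist2h4, Sept1, Hist1h1c and Hist1h4f. Likeness was the Pearson correlation of log2 CPM over all 11 libraries, centred within each assay, among 254 genes that passed the filter in both assays, which the shallow footprint libraries limit to abundant genes. These points share libraries and depth, and the correlation is a description. Since Vps37b is lower in 2 h cells in both assays, lower values there follow from the choice of these genes and are given with no test. The linker histone gene Hist1h1d (r = 0.97) had 1076 ± 310.3 CPM of RNA in 2 h and 2182 ± 271 CPM in T0 cells, and 34 and 38 footprints in 2 h and 49, 74 and 69 in T0 libraries. The core histone gene Hist2h4 (r = 0.97) had 248 ± 70.0 CPM in 2 h and 463 ± 37.3 CPM in T0 cells, with 24 and 44 footprints in 2 h and 29, 70 and 56 in T0 libraries. These footprint counts are not scaled to depth. The 2 h footprint libraries held 20848 and 23641 counts and the T0 libraries 11136, 14571 and 15237. An overlap of such counts between the states therefore does not compare levels. The septin gene Sept1 (r = 0.92) had 141 ± 33.0 CPM of RNA in 2 h and 209 ± 12.6 CPM in T0 cells, with 10 and 14 footprints in 2 h and 9, 13 and 12 in T0 libraries. The linker histone gene Hist1h1c (r = 0.92) had 1079 ± 336 CPM in 2 h and 1885 ± 297 CPM in T0 cells, with 41 and 55 footprints in 2 h and 35, 63 and 71 in T0 libraries. The core histone gene Hist1h4f (r = 0.91) had 438 ± 162 CPM in 2 h and 827 ± 139 CPM in T0 cells, with 13 and 19 footprints in 2 h and 21, 23 and 21 in T0 libraries.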

How the data were processed

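The deposited values are unnormalized read counts on coding sequences, given by the authors as whole numbers for 21957 genes in 6 RNA and 5 footprint libraries. Per the submitters' processing notes, STAR 2.5 and mm10 (GRCm38) were used, and the counting tool, annotation release, strand handling and read filters are not given in the sources used here. Symbols came from a table of gene names (21838 of 21957 matched), and positions from RefSeq's GRCm38.p6 table. Counts were tested with edgeR 4.0.16 in R 4.3.3 (quasi-likelihood F test, TMM scaling, minimum count 10, minimum total 15), on each assay by itself, and the change of footprints over RNA as an interaction over 11 libraries with TMM factors within each assay. Adjusted p-values are Benjamini-Hochberg over all genes tested, with a threshold of 0.05, two-sided. Standard errors of edgeR values are the absolute log2 change divided by the square root of the F statistic. This holds also for the footprint and interaction values of Vps37b, so their ± is not an estimate apart from that fit. Levels are TMM-scaled CPM, and likeness used a prior count of 2. Alternatives were DESeq2 1.42.0, limma 3.58.1 (voom), other scalings and filters, a replicate block and leaving out libraries. Leaving out the 3 libraries richest in Gm10800 and Gm10801 was added after seeing the data. The fits were also run on counts simulated with a single dispersion and no difference in composition between libraries of a state. Such counts lack the uneven Gm10800 and Gm10801 content of the RNA libraries, so they do not show how the fits handle it. The genes and lists were chosen with earlier results of these data known. The genes named are the 8 members, up to 4 passing or else the 2 most abundant genes of each other ESCRT list, the 5 most like Vps37b, and Cd69, Ifng, Cd8a and Actb. Outside this rule, Cbl, Hip1r and other neighbours of Vps37b were named after their values were seen, and Vps37d as a further paralogue. Coding lengths and the Vps37b promoter sequence were not used here, so the planned division of paralogue counts by length was replaced by shares of counts.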

Additional observations from a re-analysis of the deposited data

How the results depend on the processing

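The fall of Vps37b RNA kept its direction and passed in all 15 alternatives (-1.68 to -1.26), and the difference of its paralogue share lay between -25.3 and -24.4 points without each library. Counts of calls were unstable. The called ESCRT-I genes, other ESCRT genes and all genes numbered 1, 0 and 1560 by edgeR, 3, 2 and 2912 by DESeq2, 5, 7 and 5220 without TMM, 5, 13 and 6228 among genes of at least 10 CPM, and 5, 13 and 7341 without the 3 libraries richest in Gm10800 and Gm10801 (added after seeing the data). By RLE scaling 2 ESCRT-I genes, 1 other ESCRT gene and 1698 genes in all were called. Limma voom called 1 ESCRT-I gene, 1 other ESCRT gene and 3387 genes in all. Scaling without Gm10800, Gm10801, Gm20594 and Lars2 gave 1 ESCRT-I gene, 1 other ESCRT gene and 1676 genes in all. The genes tested numbered 18886 by edgeR, voom, RLE and without TMM, and 11041 had an adjusted p in DESeq2. They numbered 8494 of at least 10 CPM, 18983 without the 4 genes and 18020 without the 3 libraries. Leaving out each library gave 1 to 6 ESCRT-I genes, 0 to 20 other ESCRT genes and 583 to 13024 genes in all, highest without unstimulated replicate 2 and, for ESCRT-I genes, equally without stimulated replicate 3 (583 without stimulated replicate 2). The division of paralogue counts by coding or exon length was not run. The share of calls that were lower was 56.6% by edgeR, 87.9% by DESeq2, 80.3% by RLE, 80.7% without TMM, 44.9% by voom, 68.7% without the 4 genes, 71.1% without a filter and 73.5% without the 3 libraries. The cause was not tested.

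The footprint change of Vps37b was -3.09 to -2.01 and its efficiency change -1.81 to -0.69 when each library was left out, and -0.74 for efficiency with no filter on low counts. With the replicate number as a block, 2404 of 18886 genes were called, 1 of them in ESCRT-I, and no ESCRT call changed. The numbers did not pair the RNA libraries (correlation of deviations -0.40, 0.30 and 0.62 for numbers 1, 2 and 3, and not every library correlated best with its own number). A paired exact test of the Vps37b share gave p = 0.25, the smallest 3 pairs allow.

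Values near 0 changed sign (log2). By DESeq2, Ubap1 was at -0.16, Stam2 at -0.16, Chmp4b at -0.18, Vps4b at -0.28, Vta1 at -0.12 and Itch at -0.26. By RLE, Ubap1 was at -0.068, Stam2 at -0.069, Chmp4b at -0.084, Vps4b at -0.19, Vta1 at -0.028 and Itch at -0.17. Without TMM, Ubap1 was at -0.026, Stam2 at -0.031, Chmp4b at -0.043, Vps4b at -0.15 and Itch at -0.12. Without the 4 genes, Vps4b was at -0.092 and Itch at -0.069. With no filter, Chmp4b was at -0.013, Vps4b at -0.12 and Itch at -0.095. Among genes of at least 10 CPM, Tsg101 was at 0.015, Stam at 0.098, Vps36 at 0.063, Snf8 at 0.038, Ist1 at 0.021 and Cd8a at 0.075. Without the 3 libraries, Ubap1 was at -0.022, Chmp4b at -0.020, Vps4b at -0.13, Vta1 at -0.00016 and Itch at -0.13. Leaving out each RNA library gave Ubap1 -0.15 to 0.12, Stam2 -0.13 to 0.15, Chmp4b -0.17 to 0.14, Vps4b -0.27 to 0.021, Vta1 -0.11 to 0.17 and Itch -0.26 to 0.071.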

Other observations

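Of 7 other genes of the count table within 100 kb of Vps37b on chromosome 5, looked up after the fall of Vps37b RNA was seen, Hip1r (123973602 to 124003215), the nearest and a gene for a clathrin and actin adaptor, was lower in 2 h cells as well. It averaged 84.4 ± 20.3 CPM in 2 h cells and 171 ± 13.7 CPM in T0 cells (SD, n = 3 each), a log2 change of -1.02 ± 0.20 with an adjusted p of 0.0107 in edgeR, lower in 3 of 3 stimulated libraries and past the threshold in all 15 alternatives (0.0491 at most). Denr, on the same side, was at 50.7 ± 7.03 CPM in 2 h and 40.2 ± 1.80 CPM in T0 cells (adjusted p = 0.255 in edgeR). Abcb9 and Ogfod2, on the other side, were at -0.64 ± 0.21 and -0.66 ± 0.21 (adjusted p = 0.0908 and 0.0838 in edgeR). The remaining neighbours Ccdc62, Arl6ip4 and Pitpnm2 were at 0.09 ± 0.35, -0.21 ± 0.17 and 0.14 ± 0.19. Only Hip1r of the 7 was called, and 4.68% of all genes tested were called lower. Hip1r had 2 footprints in 2 h cells and 1 in T0 cells, too few to set beside those of Vps37b.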
